A study of Mus musculus with 12 samples.

Results

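The promoters of the ribosomal protein (RP) genes were examined in 12 ATAC-seq libraries of mouse Treg. The members were the deposited open chromatin regions (OCR, mm9) that shared at least 1 base with the window of 500 bp on either side of an annotated start of a protein-coding gene whose symbol begins with Rpl or Rps and a digit, or is Rplp0, Rplp1, Rplp2 or Rpsa; pseudogenes and the Rps6k kinases were left out. Of 85 such genes, 84 had an OCR at a start, and together they held 89 of the 118680 OCR. Rpl3l, a paralog of Rpl3 used in striated muscle, had none. The rule also took in the paralogs Rpl7l1, Rpl10l, Rpl22l1, Rpl36al, Rpl39l, Rps4y2 and Rps27l, and Rps19bp1, which encodes a binding partner of Rps19 and not a ribosomal protein.

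YFP+ Treg from spleen came from Foxp3-YFP-Cre animals, called WT, or Ikzf1-fl-Foxp3-YFP-Cre animals, called Ikzf1-cko, in which Cre driven from the Foxp3 locus removes Ikaros in Foxp3-expressing cells, so that WT and Ikzf1-cko cells alike carry the Cre reporter. Cells of either genotype were taken ex vivo or stimulated for 4 h by antibodies to CD3 and CD28 coated on a plate, with 3 libraries in each of the 4 groups. The labels do not say whether they came from separate animals, so p-values measure the spread between libraries. The study's methods name 3 biological replicates and describe sorted cells divided into a stimulated and an unstimulated part. Ex vivo and stimulated libraries may therefore share sorts, but which ones is not stated, and the main tests were unpaired. The comparisons ask how these housekeeping promoters behave when Treg lack Ikaros, when they are stimulated, and when both are combined. Counted reads per library ran from 4808916 to 15355521, and every Ikzf1-cko library was deeper than every WT library. At T cell and Treg marker genes, 7 of 8 had a start-site OCR with mean accessibility of 12.2 to 47.1 FPKM, Ikzf2 being the exception, while 0 of 4 B cell and 0 of 3 myeloid markers had one; erythroid, NK and CD8 markers had 4 in all, at means of 5.33 to 10.9 FPKM.

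Each ribosome holds 1 copy of nearly every RP, so their genes are transcribed at high and similar rates in growing cells. RP promoters in mammals are short and GC-rich, commonly carry ETS-family and YY1 sites, and start within a run of pyrimidines (the TOP sequence) through which mTOR signalling and Larp1 control translation of the mRNA. T cell stimulation raises ribosome production before division, with Myc and mTOR as main regulators, and the DNA core bound by Ikaros is GGGAA.

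The sequences at the start of RP genes are shown for members named by their accessibility, the 5 highest and 3 of the lowest in ex vivo WT Treg, because they show how different the most and least open RP promoters are. Each strip is mm9 sequence of 100 bases, with the annotated start at base 71. Capitals mark runs of at least 8 pyrimidines (C or T) and matches, on either strand, to short motifs. The core of ETS-family factors such as GABP was written as CCGGAAG. The core of the factor YY1 was written as AAGATGG. The box of the SP1 and KLF zinc fingers was written as GGGCGG. The box of the TATA-binding protein was written as TATAAA. The E-box of Myc and its relatives was written as CACGTG. The first 5 are the most open, in falling order, and Rpl39l, Rps4y2 and Rpl23 are among the least open.
Rpl27a (chr7:116662591-116662690, + strand): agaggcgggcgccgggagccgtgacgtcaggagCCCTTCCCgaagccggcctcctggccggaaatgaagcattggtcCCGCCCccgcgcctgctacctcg
Rpl22l1 (chr3:28704288-28704387, + strand): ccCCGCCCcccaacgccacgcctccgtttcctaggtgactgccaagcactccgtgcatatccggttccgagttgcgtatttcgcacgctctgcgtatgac
Rpl30 (chr15:34373366-34373465, - strand): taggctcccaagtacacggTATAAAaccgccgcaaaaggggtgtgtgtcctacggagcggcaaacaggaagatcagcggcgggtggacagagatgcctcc
Rpl37 (chr15:5066543-5066642, + strand): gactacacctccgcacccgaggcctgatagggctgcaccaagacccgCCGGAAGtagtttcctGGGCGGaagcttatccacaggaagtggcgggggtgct
Rps27a (chr11:29448080-29448179, - strand): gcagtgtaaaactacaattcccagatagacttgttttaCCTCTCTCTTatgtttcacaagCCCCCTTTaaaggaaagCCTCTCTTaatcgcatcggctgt
Rpl39l (chr16:10170249-10170348, + strand): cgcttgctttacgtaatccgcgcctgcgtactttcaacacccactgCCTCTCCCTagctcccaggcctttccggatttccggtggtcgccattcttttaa
Rps4y2 (chr6:148303108-148303207, + strand): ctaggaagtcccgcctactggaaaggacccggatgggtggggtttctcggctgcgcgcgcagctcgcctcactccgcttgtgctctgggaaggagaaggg
Rpl23 (chr11:97643722-97643821, - strand): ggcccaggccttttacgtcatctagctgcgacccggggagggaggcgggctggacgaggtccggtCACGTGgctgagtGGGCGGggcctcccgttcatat

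The strips shared no single arrangement. Rps27a held 3 pyrimidine runs around its start, Rpl37 an ETS core and a GGGCGG box upstream of it, Rpl30 a TATAAA box and Rpl23 an E-box, whereas Rps4y2 held none of the marked elements. Over the longer window from 250 bases before to 50 after the start, CCGGAAG occurred at 24 of 85 RP genes (28.2%) and at 10.8% of 22372 protein-coding genes. AAGATGG occurred at 11.8% of RP genes against 6.79% of all genes. A run of at least 8 C or T within 25 bases of the start was present at 34.1% against 19.1%, whereas the start base itself lay in a run of at least 5 C or T at 9.41% against 8.91%. By the ratio of the shares, the other letters searched differed less between RP genes and all genes than CCGGAAG and AAGATGG did. They were GGGCGG 49.4% against 43.9%, CACGTG 10.6% against 7.69%, TATAAA 11.8% against 13.5%, and the Ikaros core GGGAA 63.5% against 61.9%. The median GC content of the window was 55.3% in both sets. Matches were counted on both strands and describe letters in the reference, not bound sites. The start used was the one that most annotated transcripts share, with ties going to the most upstream. It lay inside the gene's own OCR for 81 of the 85 genes. Sequence at other annotated starts was not examined, so the shares near the start hold for this choice alone.

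Of the 89 OCR, 86 held an annotated start; the typical OCR extended 524 bases upstream and 596 bases downstream of it (medians). The other 3 lay within 500 bp of a start without holding one, at Rpl4, Rpl10l and Rpl13. The OCR were 199 to 2310 bp long, with a median of 1120 bp against 1080 bp for 14037 tested OCR at the starts of other protein-coding genes. Rpl4, Rpl13, Rpl13a, Rpl18 and Rpl24 had 2 OCR each and 79 genes had 1. At 17 OCR a start of another protein-coding gene was covered too, for example Ndufa7 with Rps28, Vps52 with Rps18 and Nkiras1 with Rpl15, and there the signal cannot be assigned to the RP gene alone. The OCR lay on 19 chromosomes, 16 of them on chromosome 7 and 4 on chromosome X.

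Every RP OCR held reads in every library, and the median RP OCR was more accessible than the median of other start sites in each group. The median RP OCR had 25.5 FPKM in ex vivo WT, 30.1 in ex vivo Ikzf1-cko, 29.4 in stimulated WT and 32.8 in stimulated Ikzf1-cko Treg, where FPKM is the count scaled by OCR length in kilobases and by the library's total counted reads. The corresponding medians at other start sites were 18.6, 19.7, 18.7 and 21.2 FPKM, and 61, 63, 76 and 70 of the 89 RP OCR lay above them. The RP median stood above 62.7% to 71.0% of other start-site OCR, depending on the group. Reads on RP OCR were 0.30, 0.305 and 0.329% of all counted reads in the ex vivo WT libraries and 0.345, 0.352 and 0.356% in ex vivo Ikzf1-cko. They were 0.296, 0.323 and 0.310% in stimulated WT and 0.379, 0.382 and 0.392% in stimulated Ikzf1-cko. The share was higher in all Ikzf1-cko libraries than in all WT libraries. Reads on other start sites moved the same way, from 45.1% ± 1.47 (SD, n = 3) in ex vivo WT to 49.0% ± 0.326 in ex vivo Ikzf1-cko, and from 41.9% ± 0.737 to 49.8% ± 1.02 in stimulated cells. Among start-site reads alone the RP share was 0.685% ± 0.0125, 0.711% ± 0.0112, 0.734% ± 0.0193 and 0.766% ± 0.002 in the same order of groups (SD, n = 3 each). Within each genotype all stimulated libraries lay above all ex vivo libraries by this share. In such bulk libraries, fewer cells with an open promoter and less accessibility per cell cannot be told apart.

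**Figure D1:**
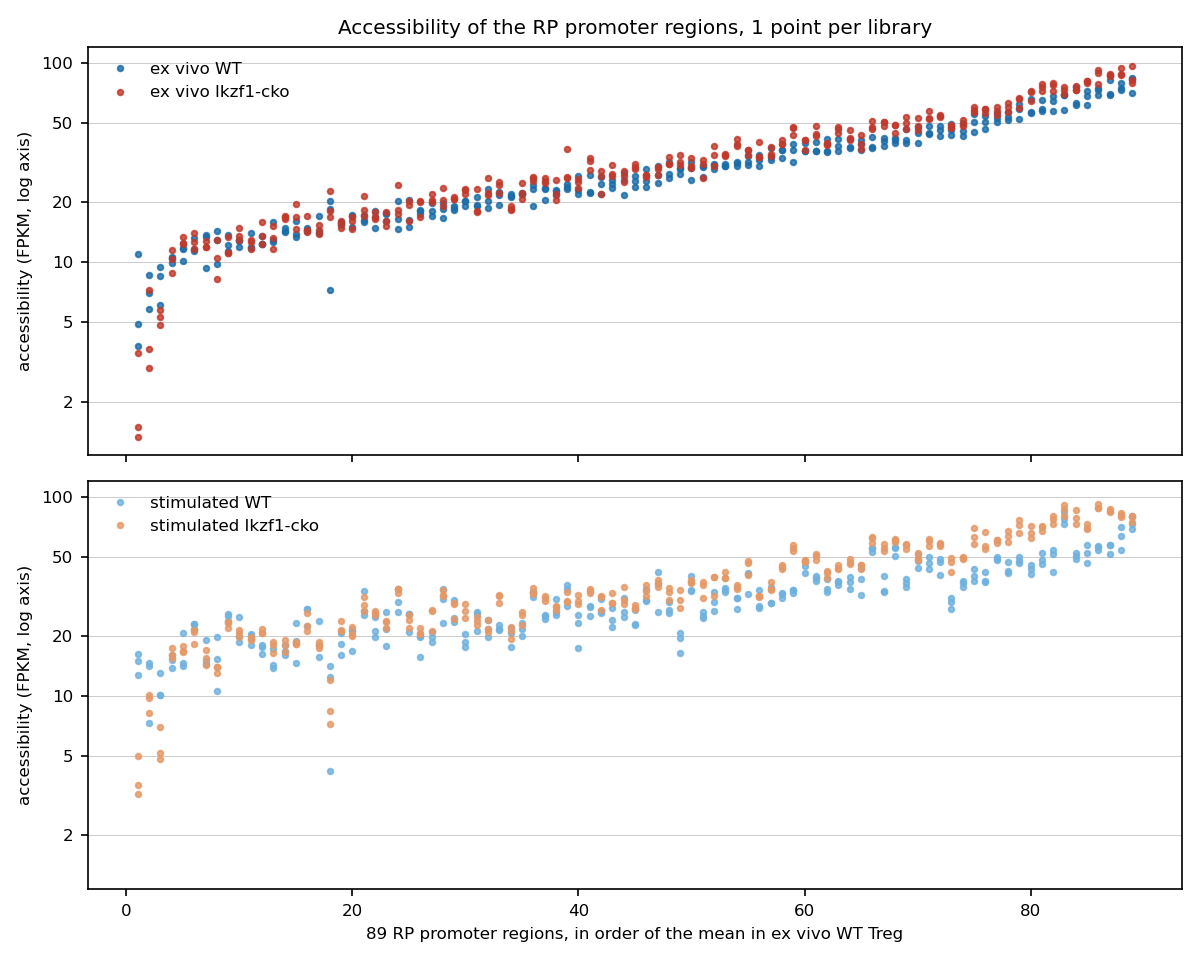
Accessibility (FPKM, log axis) of all 89 RP promoter OCR in order of their ex vivo WT mean, 1 point per library, with the 6 ex vivo libraries above and the 6 stimulated libraries below. In ex vivo WT Treg the group means run from 6.58 to 79.3 FPKM, and the slope across members is shallower in stimulated WT Treg.

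Tested RP OCR were spread less than other start sites in all 12 libraries. In ex vivo WT the interquartile range of log2(FPKM + 1) was 1.19, 1.09 and 1.16 at RP OCR and 1.67, 1.7 and 1.85 at other start sites. Still, despite equal protein stoichiometry, accessibility per kilobase varied among members. The highest in ex vivo WT Treg was Rpl27a (chr7:116662124-116663256), a large-subunit protein, with 83.4, 71.0 and 83.7 FPKM in the 3 libraries. Rpl22l1 (chr3:28703966-28705079), the paralog of Rpl22, had 75.6 ± 3.13 FPKM (SD, n = 3), Rpl30 (chr15:34372620-34373665) 73.6 ± 7.33, Rpl37 (chr15:5066005-5067128) 72.6 ± 3.39 and Rps27a (chr11:29447556-29448584), which is made as a fusion with ubiquitin, 67.5 ± 5.48. Neighbours in this order overlapped between libraries, while Rps27a was the lowest of the 5 in each of the 3 libraries and did not overlap Rpl22l1. At the other end, Rpl39l (chr16:10170209-10170452) had 11, 4.89 and 3.81 FPKM and Rpl10l (chr12:67385107-67385305) 5.80, 8.65 and 7.01 FPKM; both are paralogs known from the testis. Between 5 and 24 reads per library lay on these 2 OCR, which failed the filter on low counts (3.6 CPM, the count scaled to a common library total, in at least 3 libraries), so they entered no test. Rps4y2 (chr6:148302830-148303498), a paralog of Rps4x, had 9.49, 6.14 and 8.52 FPKM. The lowest conventional RP gene was Rpl23 (chr11:97643050-97644253), a protein that can bind Mdm2, with 9.91, 10.6 and 10.5 FPKM, followed by the paralog Rpl7l1 (chr17:46919092-46920506) with 11.2 ± 0.897 FPKM. Rpl23 lay below Rpl27a in all 12 libraries.

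The 6 members fixed by role lay between these extremes in ex vivo WT Treg. Rpl5 (chr5:108329199-108330478) and Rpl11 (chr4:135608637-135609560), which with the 5S RNA restrain Mdm2, had 29.2 ± 2.01 and 22.6 ± 0.697 FPKM. Rps6 (chr4:86502547-86504051), the substrate of S6 kinase, had 35.6 ± 2.01 FPKM. The stalk protein gene Rplp0 (chr5:116009184-116010259) had 34.5 ± 2.63 and Rpsa (chr9:120036203-120037542), a 40S protein also known as the laminin receptor, 31.3 ± 0.785 FPKM. Rps19 (chr7:25668721-25669996), mutated in Diamond-Blackfan anaemia, had 41.0 ± 1.18 FPKM. Within a group the libraries agreed closely: the median coefficient of variation of a tested member was 7.47% in ex vivo WT, 5.54% in ex vivo Ikzf1-cko, 8.09% in stimulated WT and 4.16% in stimulated Ikzf1-cko, each below that of other start sites (8.61, 6.49, 9.85 and 7.17%). The other start sites were not matched to the members for level or read count.

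Across the 4 groups members changed modestly. The ratio of a member's highest to its lowest group mean had a median of 1.38 and exceeded 2 at 3 of 87 tested OCR (3.45%), against a median of 1.43 and 12.6% over 2 at other start sites. Members and other start sites were not matched for level here, and whether level accounts for this difference was not tested. The highest group mean was in stimulated Ikzf1-cko Treg at 57 of 87 OCR, and the lowest was in ex vivo WT at 37 and in stimulated WT at 37. Fold changes and tests below came from quasi-likelihood F-tests of edgeR, fitted to deposited counts of all 69957 OCR that passed the filter, with Benjamini-Hochberg adjustment (FDR). A stricter call required FDR below 0.05 and an absolute log2 fold change above 1, and a looser call FDR below 0.05 alone. With library totals as scaling, the median of all OCR was not 0: it was -0.13 for Ikzf1-cko minus WT ex vivo and -0.11 in stimulated cells, and 0.04 and 0.06 for stimulation in WT and Ikzf1-cko.

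**Figure D2:**
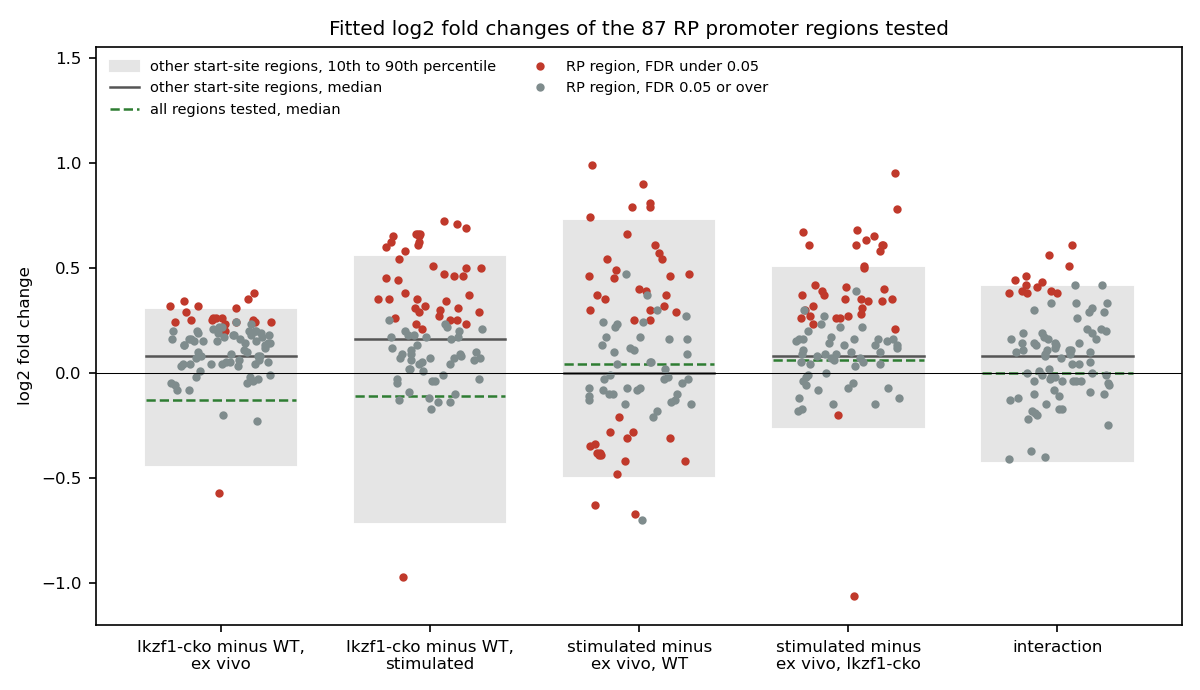
Fitted log2 fold changes of the 87 tested RP promoter OCR in the 4 comparisons and the interaction (points, red at FDR below 0.05), with the 10th to 90th percentile and median of other start-site OCR (grey box and line) and the median of all tested OCR (green dashes). Medians of the RP points are 0.15, 0.21, 0.09, 0.16 and 0.11 from left to right, and 1 point lies beyond an absolute value of 1.

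Loss of Ikaros in ex vivo Treg was accompanied by small changes at RP promoters. With edgeR 0 of the 87 passed the stricter call, which 0.588% of all OCR passed as higher and 4.04% as lower. At other start sites 39 of 14037 passed it as higher and 138 as lower (1.26% together). DESeq2 also gave 0. With edgeR an unadjusted p under 0.05 was found at 32 of the 87. Similar shares had one among other start sites (5100 of 14037) and all OCR tested (25239 of 69957). At FDR below 0.05, 19 were higher and 1 lower in Ikzf1-cko (21.8% and 1.15%), where 8.78% of all OCR were higher and 12.7% lower, and at other start sites 15.9% were higher and 5.94% lower. The median log2 fold change of the members was 0.15, against 0.08 at other start sites. With reads on other start sites as library size 5 were higher and 2 lower and the median was 0.03, and with a loess fit against abundance 3 were higher and 1 lower. The Ikzf1-cko libraries were the deeper ones, and with every library thinned to 4808916 reads 13 were higher and 0 lower. Without WT replicate 1, WT replicate 2 or Ikzf1-cko replicate 2 the number higher was 6, 7 and 10. Libraries of the genotypes did not overlap at 35 members that were higher and 2 that were lower (40.2% and 2.3%). The shares were 29.0% and 10.3% at other start sites and 14.9% and 21.0% of all OCR.

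The largest rise ex vivo was at Rpl14 (chr9:120480099-120481092), with 22.5, 22.3 and 27.5 FPKM in WT and 29.2, 32.2 and 33.4 FPKM in Ikzf1-cko Treg. The groups did not overlap, and its log2 fold change was 0.38 (SE 0.10, adjusted p = 0.006). Rpl34 (chr3:130432344-130433696) rose by 0.35 on the log2 scale (SE 0.08, adjusted p = 0.0016). Rpsa had 30.4, 31.9 and 31.6 FPKM in WT and 38.3, 41.4 and 39.2 FPKM in Ikzf1-cko (log2 fold change 0.34, SE 0.08, adjusted p = 0.0021). For these 3 the call was retained in 13 of 14 alternative analyses. Among the other fixed members, Rps19 rose by 0.20 (adjusted p = 0.046), a call kept in 5 of 14 alternatives with adjusted p up to 0.64. Rps6 (0.15), Rplp0 (0.04), Rpl5 (0.04) and Rpl11 (0.01) did not pass, and the sign of the last 3 turned under 3 scalings.

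Rps4y2 was the single member lower in Ikzf1-cko Treg. Ex vivo it had 5.74, 5.32 and 4.86 FPKM in Ikzf1-cko against 9.49, 6.14 and 8.52 in WT (log2 fold change -0.57, SE 0.21, adjusted p = 0.046). In stimulated cells the libraries stood further apart, with 6.97, 5.17 and 4.82 FPKM in Ikzf1-cko against 10.1, 10.1 and 13.1 in WT (log2 fold change -0.97, SE 0.21, adjusted p = 0.00039). The ex vivo call was retained in 2 and the stimulated call in 13 of 13 alternatives. This OCR had 31 to 59 reads per library. Among the most open OCR of each gene, the next lowest values ex vivo, at Rpl26 and Rpl23a (chr11:77996646-77997383), were both -0.08 and did not pass. At second or weaker OCR, Rpl4 had -0.23 and Rpl13a -0.20, which did not pass either.

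In stimulated Treg the genotypes differed at more RP promoters. Again 0 of 87 passed the stricter call with edgeR or DESeq2, where 1.16% of all OCR were higher and 20.2% lower by that call. At other start sites 42 of 14037 were higher and 889 lower by it (6.63% together). With edgeR 46 had an unadjusted p under 0.05. The share was no smaller among other start sites (8625 of 14037) and all OCR tested (39391 of 69957). At FDR below 0.05, 41 were higher and 1 lower in Ikzf1-cko (47.1% and 1.15%), where 20.4% of all OCR were higher and 30.7% lower, and at other start sites 40.8% and 15.8%. The median log2 fold change was 0.21 against 0.16 at other start sites. Both medians turned negative with reads on other start sites as library size (-0.04 and -0.09), with a loess fit against abundance (-0.10 and -0.08) and after quantile normalisation (-0.08 and -0.04); the members higher and lower then numbered 20 and 12, 13 and 14, and 15 and 15. With a loess fit against GC content 64 were higher and 1 lower, and with libraries thinned to equal depth 35 and 1. Over all OCR 20664 were higher and 17212 lower with the GC fit, and 12385 and 19402 after thinning. Libraries did not overlap at 44 members that were higher and 3 that were lower (50.6% and 3.45%). The shares were 44.0% and 17.0% at other start sites and 23.2% and 34.0% of all OCR.

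Rpl34 showed the largest rise, with 34.1, 32.7 and 34.0 FPKM in stimulated WT and 55.1, 53.6 and 57.6 FPKM in stimulated Ikzf1-cko Treg. Its log2 fold change was 0.72 (SE 0.08, adjusted p = 7.6e-08). At Rpl39 (chrX:34624573-34625993), whose small protein lines the exit tunnel, WT libraries had 16.4, 20.7 and 19.5 FPKM and Ikzf1-cko libraries 27.8, 30.2 and 34.1 FPKM (log2 fold change 0.71, SE 0.10, adjusted p = 2.1e-06). Rpl37 had 54.1, 56.6 and 55.7 FPKM in WT and 88.0, 87.6 and 92.3 in Ikzf1-cko (log2 fold change 0.69, SE 0.08, adjusted p = 4.6e-08). All 3 calls were kept in 14 of 14 alternatives. Of the fixed members, Rps6 (0.46, adjusted p = 1.7e-05), Rpl5 (0.46, adjusted p = 0.00034) and Rpsa (0.25, adjusted p = 0.014) rose, though Rpsa was -0.10 with the loess fit. Rps19 (0.17), Rplp0 (0.18) and Rpl11 (0.01) did not pass and turned sign under the same 3 scalings. The lowest values after Rps4y2 were at Rpl19 (-0.17) and Rpl10a (-0.14), neither of which passed.

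On stimulation of WT Treg, RP promoters rose and fell in shares near those of all OCR. Compared with ex vivo cells 27 rose and 16 fell at FDR below 0.05 (31.0% and 18.4%), where 26.9% of all OCR rose and 20.7% fell, and at other start sites 24.3% and 25.5%. With edgeR or DESeq2 0 passed the stricter call, by which 17.7% of all OCR rose and 2.32% fell. At other start sites 803 of 14037 rose and 80 fell by it (6.29% together). An unadjusted p under 0.05 was found at 49 of 87 with edgeR. Similar shares had one among other start sites (7925 of 14037) and all OCR tested (37454 of 69957). The median log2 fold change was 0.09 against 0.00 at other start sites. The split moved with the scaling: it was 39 and 13 with reads on other start sites as library size, 47 and 3 with a loess fit against abundance, 49 and 6 after quantile normalisation, and 10 and 35 with a loess fit against GC content. Libraries did not overlap at 31 members that were higher and 19 that were lower (35.6% and 21.8%). The shares were 27.0% and 28.4% at other start sites and 29.8% and 24.3% of all OCR.

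In Ikzf1-cko Treg more RP promoters rose than fell on stimulation, and 50 of 87 passed in neither direction. At FDR below 0.05, 35 rose and 2 fell (40.2% and 2.30%), where 12% of all OCR rose and 11.5% fell, and at other start sites 20.8% and 9.68%. The median was 0.16 against 0.08 at other start sites, and 15 rose and 5 fell with a loess fit against GC content, 19 rose with DESeq2, 20 with TMM scaling, and 23 rose without ex vivo Ikzf1-cko replicate 1. Libraries did not overlap at 46 members that were higher and 7 that were lower (52.9% and 8.05%). The shares were 31.2% and 15.5% at other start sites and 20.4% and 17.3% of all OCR. The stricter call was passed by 0 as higher and 1 as lower, against 3.02% and 0.632% of all OCR. Of 14037 other start sites, 163 passed it as higher and 14 as lower (1.26% together). In both genotypes the RP median exceeded that of other start sites under each of the scalings and tools tried, by 0.07 to 0.15 in WT and 0.08 to 0.11 in Ikzf1-cko on the log2 scale. Settings that only rescale libraries, such as TMM or start-site reads as library size, shift both medians alike. They could not change this difference (0.08 with either in both genotypes).

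The 2 stimulation comparisons share no library. Of the 27 members that rose in WT, 24 also rose in Ikzf1-cko, which is 88.9% of the former and 68.6% of the 35 latter. At other start sites the OCR that rose in both made up 54.9% of those that rose in WT and 64.0% of those that rose in Ikzf1-cko. Members that rose in both were 27.6% of the 87, against 13.3% of other start sites and 7.13% of all OCR tested. No member rose in 1 genotype and fell in the other, but such opposite calls were rare at other start sites too. Of 14037 there, 4 rose in WT and fell in Ikzf1-cko, and 27 did the reverse. Across the 87 members the 2 changes had a Spearman correlation of 0.79, against 0.72 across 14037 other start-site OCR. Of the 24, 9 kept the call in both genotypes in all 14 alternatives and without any 1 library: Rpl26, Rpl19, Rpl10a, Rpl18 (the OCR at its downstream start, which also covers a start of Sphk2), Rps18, Rps28, Rps16, Rps10 and Rps26.

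**Figure D3:**
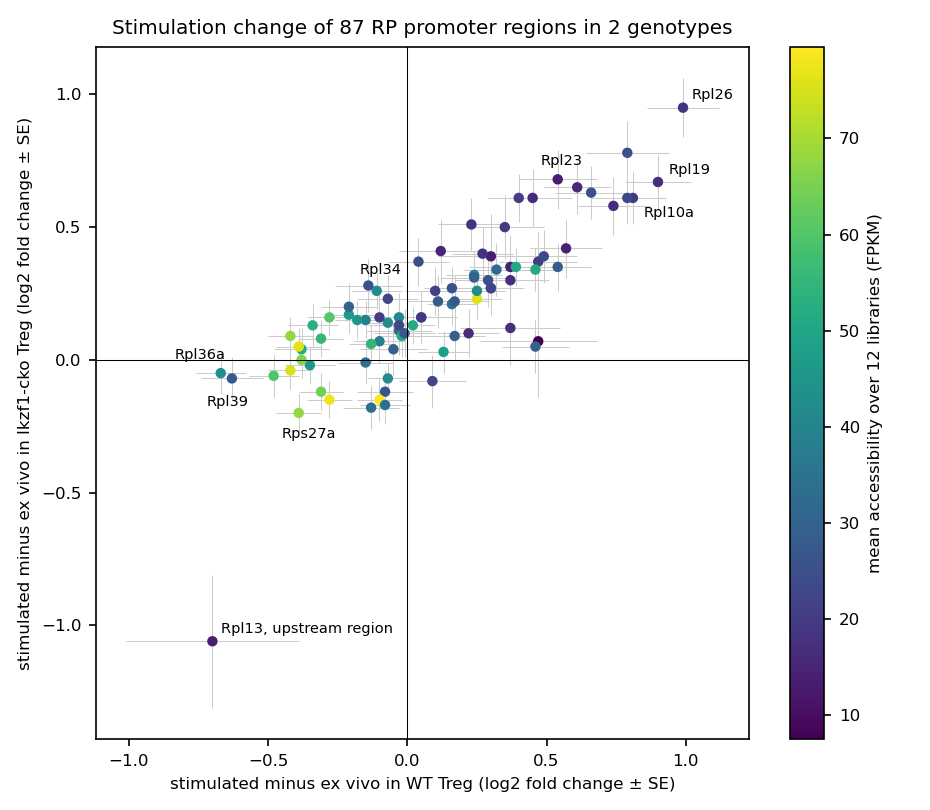
Log2 fold change on stimulation in WT (x axis) and in Ikzf1-cko Treg (y axis) of 87 RP promoter OCR, with bars of 1 SE and colour by the mean FPKM over 12 libraries. Rpl26 lies at the upper right (0.99 and 0.95), Rpl36a and Rpl39 lie left of 0 in WT (-0.67 and -0.63) and near 0 in Ikzf1-cko (-0.05 and -0.07), and the OCR upstream of Rpl13 is the lowest point.

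Rpl26 (chr11:68714587-68715566), a large-subunit protein near the exit tunnel, rose the most in both genotypes. In WT it had 11.4, 12.2 and 13.7 FPKM ex vivo and 23.8, 25.9 and 25.3 FPKM after stimulation, and in Ikzf1-cko 11.2, 11.1 and 13.4 FPKM before and 21.9, 23.3 and 23.6 FPKM after. No stimulated library overlapped an ex vivo library, and the log2 fold changes were 0.99 (SE 0.13, adjusted p = 3.5e-07) and 0.95 (SE 0.11, adjusted p = 1.1e-07), or 1.99-fold and 1.94-fold. Rpl19 (chr11:97887682-97888910), another large-subunit protein, went from 11.4, 11.6 and 13.3 to 23.1, 23.0 and 21.8 FPKM in WT and from 11.6, 12.7 and 14.0 to 21.0, 21.5 and 18.3 FPKM in Ikzf1-cko, by 0.90 (SE 0.12, adjusted p = 9.5e-07) and 0.67 (SE 0.10, adjusted p = 1.4e-05). Rpl10a (chr17:28465083-28466343), a protein of the L1 stalk, had 14.3, 14.6 and 14.9 FPKM ex vivo and 22.4, 27.4 and 27.2 FPKM after stimulation in WT (log2 fold change 0.81, SE 0.12, adjusted p = 4e-06). Rpl23 ranked among the 3 highest in Ikzf1-cko, from 8.87, 10.4 and 11.5 to 17.5, 16.1 and 15.5 FPKM (log2 fold change 0.68, SE 0.11, adjusted p = 4.1e-05).

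Among the fixed members, Rps19 rose in both genotypes, by 0.39 in WT (adjusted p = 0.00021) and 0.35 in Ikzf1-cko (adjusted p = 0.00027), and so did Rpl11, by 0.29 (adjusted p = 0.04) and 0.30 (adjusted p = 0.028). Over the alternatives the adjusted p of Rpl11 ranged from 0.00024 to 0.88 in WT and from 0.01 to 0.49 in Ikzf1-cko. Rpsa (-0.08 and -0.17), Rplp0 (-0.15 and -0.01), Rps6 (-0.15 and 0.15) and Rpl5 (-0.21 and 0.20) passed in neither genotype, and in WT all 4 turned positive with the loess fit against abundance.

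**Figure D4:**
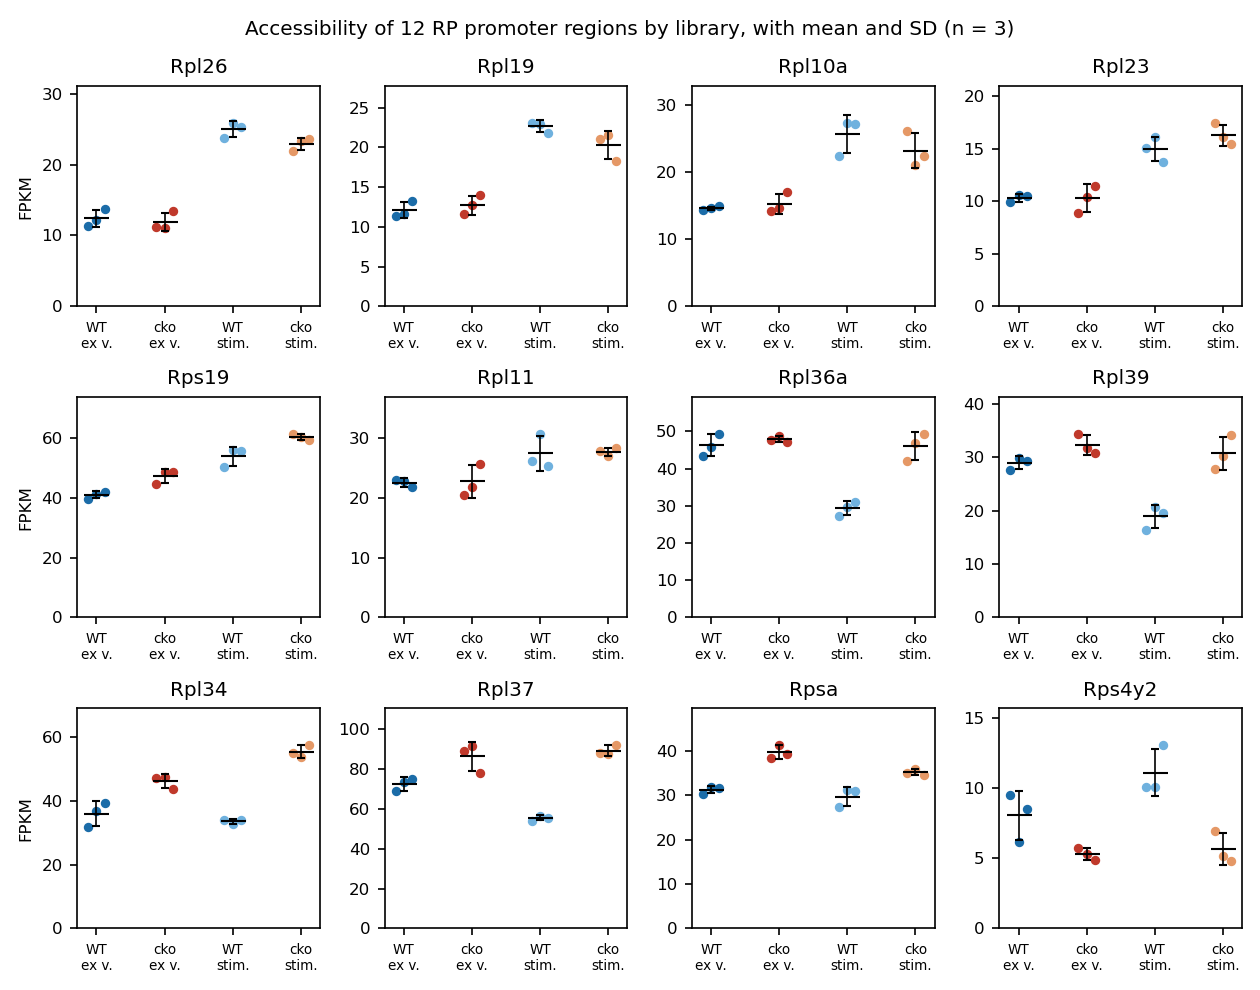
Accessibility (FPKM, from 0) of 12 RP promoter OCR in each library of the 4 groups (points), with the mean and SD of 3 libraries (bars). The stimulated libraries lie above the ex vivo libraries at Rpl26, Rpl19, Rpl10a, Rpl23 and Rps19, the stimulated WT libraries lie below the other groups at Rpl36a and Rpl39, and Rps4y2 is lower in Ikzf1-cko than in WT libraries of the same condition.

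The fall in stimulated WT Treg was led by a pair of X-linked members. Rpl36a (chrX:131119771-131120933), a large-subunit protein, had 43.5, 45.9 and 49.4 FPKM ex vivo and 27.3, 29.7 and 31.1 FPKM after stimulation (log2 fold change -0.67, SE 0.09, adjusted p = 1.1e-06). In Ikzf1-cko it had 47.6, 48.8 and 47.2 FPKM before and 42.0, 46.8 and 49.4 FPKM after, and the groups overlapped. Rpl39 went from 27.6, 29.9 and 29.3 to 16.4, 20.7 and 19.5 FPKM in WT (log2 fold change -0.63, SE 0.11, adjusted p = 2.3e-05). The other X-linked members, Rpl10 and Rps4x, had WT values of -0.01 and 0.12 that did not pass. Next came Rpl35 (chr2:38860360-38861175), from 57.1, 56.3 and 66.0 to 41.1, 43.4 and 45.4 FPKM (log2 fold change -0.48, SE 0.09, adjusted p = 0.00017). These 3 calls were kept in 14 of 14 alternatives. In Ikzf1-cko the lowest values at the main OCR of a gene were at Rps27a (-0.20, adjusted p = 0.043), Rpl37a (chr1:72757234-72758559, -0.18) and Rpsa (-0.17), of which only Rps27a passed, in 7 of the 14 alternatives too.

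The change on stimulation followed the level of the promoter. Ranked by mean FPKM over all 12 libraries, the 29 weakest tested members (7.53 to 23.3 FPKM) had a median log2 fold change of 0.37 in WT and 0.39 in Ikzf1-cko. In WT 15 of them rose and 0 fell, and in Ikzf1-cko 17 rose and 1 fell. Other start-site OCR in the same FPKM range had medians of 0.13 and 0.12, and 27.1% and 24.4% of them rose, against 51.7% and 58.6% of the weak RP OCR. The 29 strongest members (40.9 to 79.5 FPKM) had a median of -0.21 in WT, with 4 that rose and 15 that fell, and of 0.08 in Ikzf1-cko, with 5 that rose and 1 that fell. Other start sites of that range had medians of -0.22 and 0.00, and in WT 51.8% of them fell, as did 51.7% of the strong RP OCR.

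**Figure D5:**
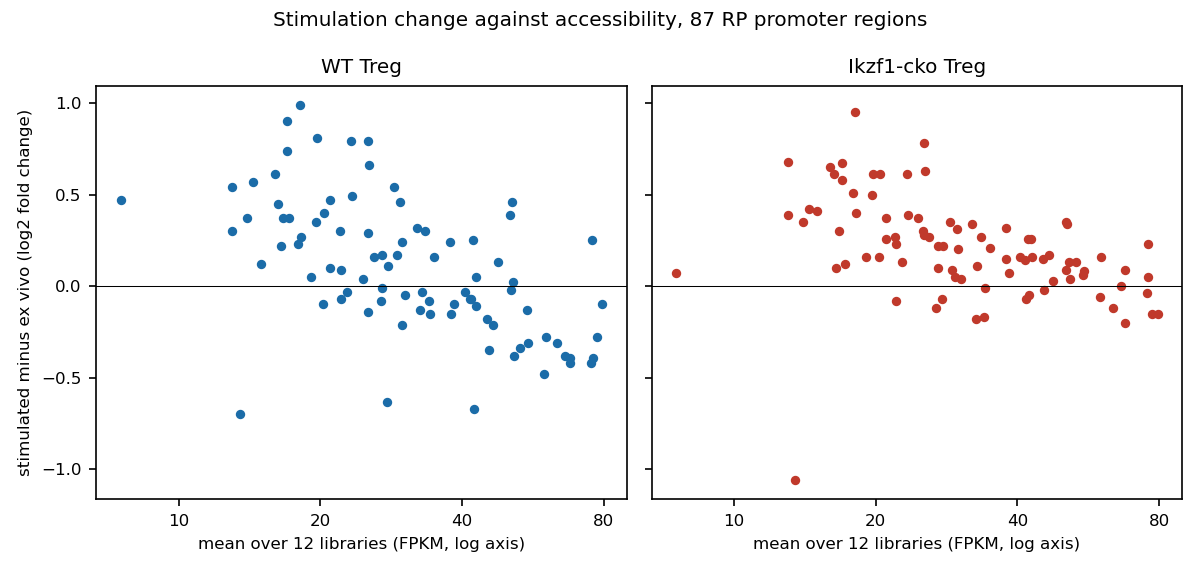
Log2 fold change on stimulation against mean accessibility over 12 libraries (FPKM, log axis) for 87 RP promoter OCR, in WT (left) and Ikzf1-cko Treg (right). The weakest 29 members have medians of 0.37 and 0.39, and the strongest 29 have medians of -0.21 in WT and 0.08 in Ikzf1-cko.

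Across members the Spearman correlation of level and change was -0.63 in WT and -0.57 in Ikzf1-cko (n = 87 OCR, which share libraries), and across other start sites -0.59 and -0.34. The libraries themselves differed in spread: the 90th percentile of RP FPKM was 4.20 to 4.89 times the 10th in ex vivo WT, 2.62 to 3.26 times in stimulated WT, 4.61 to 5.58 times in ex vivo Ikzf1-cko and 3.65 to 3.95 times in stimulated Ikzf1-cko libraries. With a loess fit against abundance, which removes a trend with level over all OCR, the weakest members kept medians of 0.56 and 0.42, while the strongest had 0.05 and 0.11 and 2 and 1 of them fell. With a loess fit against GC content the weakest had medians of 0.08 in WT (7 rose and 2 fell) and 0.23 in Ikzf1-cko (12 rose and 1 fell), and the strongest -0.54 (22 fell) and -0.11 (2 fell). The part of the narrower spread of stimulated WT libraries in the fall of strong members was not tested beyond that fit.

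In 4 of the 5 genes with a pair of OCR, a call on stimulation within a genotype was made at 1 OCR and not at the other. Rpl13a had its most open OCR at 0.25 in WT (adjusted p = 0.024) and 0.23 in Ikzf1-cko (adjusted p = 0.026) on the log2 scale, and its other OCR did not pass (-0.10 and 0.16). At Rpl4 neither OCR passed (0.37 and 0.30 in WT, 0.12 and 0.39 in Ikzf1-cko). The difference between OCR of a gene was not tested. The OCR upstream of Rpl13 (chr8:125625602-125625997) lay before the start without holding it and carried the single stricter call: in Ikzf1-cko it had 16.9, 18 and 22.9 FPKM ex vivo and 12, 7.20 and 8.37 FPKM after stimulation (log2 fold change -1.06, SE 0.25, adjusted p = 0.0022, kept in 10 of 13 alternatives). In WT it had 7.29, 20.4 and 18.5 and then 4.18, 12.5 and 14.2 FPKM, values that overlapped (log2 fold change -0.70, adjusted p = 0.066), and it had 10 to 106 reads per library. The OCR at the Rpl13 start (chr8:125626031-125627039) changed by 0.05 in WT and 0.16 in Ikzf1-cko and did not pass. At Rpl18 the OCR at the upstream start (chr7:52970199-52970966) had values of -0.03 and 0.16 that did not pass, while the other (chr7:52973035-52973740) rose by 0.79 (SE 0.15, adjusted p = 0.00011) and 0.78 (SE 0.12, adjusted p = 1.7e-05). At Rpl24 the stronger OCR (chr16:55973389-55975018) fell by 0.38 on the log2 scale in WT (adjusted p = 0.00043) and had 0.00 in Ikzf1-cko, whereas the weaker one (chr16:55966126-55967091) had 0.04 in WT and rose by 0.37 in Ikzf1-cko (adjusted p = 0.0031). The Rpl24 start used for the sequence windows lay in the weaker OCR, and the stronger one held another annotated start. At Rpl13a too, the start used for the sequence windows lay in the less open OCR.

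Whether stimulation acted differently in the genotypes was tested with the interaction term, the change in Ikzf1-cko minus the change in WT. At FDR below 0.05, 13 of 87 members were positive (14.9%) and 0 negative, where 5.66% of all OCR were positive and 1.82% negative and at other start sites 9.15% and 1.36%. With edgeR or DESeq2 0 passed the stricter call, against 0.579% and 1.40% of all OCR. Of 14037 other start sites, 15 passed it as positive and 86 as negative (0.72% together). An unadjusted p under 0.05 was found at 21 with edgeR. Similar shares had one among other start sites (3837 of 14037) and all OCR tested (17108 of 69957). DESeq2 and TMM scaling gave 5 and 3 positive members at FDR below 0.05. The number positive was 4 without stimulated Ikzf1-cko replicate 3 or ex vivo WT replicate 3, 6 without stimulated WT replicate 1 and 7 without ex vivo Ikzf1-cko replicate 3. The median was 0.11 against 0.08 at other start sites, and both were negative with a loess fit against abundance (-0.11 and -0.09), after quantile normalisation (-0.10 and -0.06) and with reads on other start sites as library size (-0.03 and -0.06). Of the 13, 12 were among the 29 strongest members (41.4%, against 22.6% of other start sites of that range).

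The smallest p belonged to Rpl36a, with an interaction of 0.61 (SE 0.12, adjusted p = 0.0016), kept in 13 of 13 alternatives. Rpl15 (chr14:19102821-19104089) had 61.9, 62.8 and 76.1 FPKM in ex vivo WT and 50.4, 48.8 and 52.1 in stimulated WT, but 77.1, 73.3 and 73.1 and then 73.3, 78.7 and 86.2 FPKM in Ikzf1-cko (interaction 0.51, SE 0.11, adjusted p = 0.0044). Its OCR also covers a start of Nkiras1. Rpl37 (0.44, adjusted p = 0.0077) and Rpl39 (0.56, adjusted p = 0.01) kept the call in 10 of 13 alternatives. Rps13 (chr7:123477125-123478197), a small-subunit protein, had 0.46 (adjusted p = 0.016), kept in 5 of 13. At these 5 the WT value on stimulation was negative and the Ikzf1-cko value lay nearer to 0 or above it. For the members that rose in both genotypes, such as Rpl26 (interaction -0.04, SE 0.17), no difference between genotypes was detected.

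Other gene groups of protein synthesis were counted the same way, to be read against the shares of all OCR given above for each comparison (26.9% rose and 20.7% fell in WT, and 12% and 11.5% in Ikzf1-cko). On stimulation of WT Treg, 17 of 75 start-site OCR of mitochondrial RP genes rose and 17 fell (22.7% each, median 0.09), 13 of 40 at proteasome genes rose and 7 fell (0.09), 7 of 20 at translation factors with a TOP start rose and 3 fell (0.06), and 5 of 25 at ribosome assembly genes rose and 5 fell (-0.09). In Ikzf1-cko the counts were 20 and 2 (0.12), 20 and 1 (0.23), 7 and 1 (0.17), and 6 and 1 (0.07). For Ikzf1-cko minus WT in stimulated cells they were 34 and 1 (0.20), 20 and 0 (0.23), 9 and 1 (0.11), and 13 and 1 (0.24), where 40.8% of other start sites were higher and 15.8% lower, beside 41 and 1 (0.21) of 87 for the cytosolic RP genes. At 7 OCR of the regulators Myc, Mtor, Eif4ebp1, Rps6kb1 and Larp1, 2 rose and 1 fell on stimulation in each genotype. As a check on stimulation, 17 start-site OCR of 10 TCR response genes such as Nr4a1, Egr2 and Tnfrsf9 were counted. In WT 0 rose and 6 fell, and in Ikzf1-cko 0 rose and 4 fell, so the check showed no rise at these starts. Distal OCR of these genes were not examined.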

How the data were processed

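Per the labels, Treg nuclei were tagged with Tn5 and sequenced, and the submitters' processing notes name Bowtie2, MACS2 and mm9. Per the study's methods, duplicate reads were removed, peaks were called with shifted and extended reads, and counts are of de-duplicated reads. The authors deposited raw counts for 118680 OCR in 12 libraries, with FPKM that equal counts scaled by OCR length and library total. Counts were tested with edgeR 4.0.16 (glmQLFit and glmQLFTest, 4 groups in 1 fit, library totals as scaling, at least 3.6 CPM in at least 3 libraries, Benjamini-Hochberg over 69957 OCR). DESeq2 1.42.0 and limma 3.58.1 served as alternatives, and scripts were tested on simulated data. The study's normalisation to background bins was not used, since reads outside OCR were not analysed here. Starts were GENCODE vM1 on mm9. The deposited table of the authors' fold changes and p-values was not used. The members and gene lists were chosen with earlier results of these data known. Named members were the 6 fixed by role, the 3 highest and 3 lowest per comparison (the most open OCR of each gene), the 5 highest and 5 lowest levels, genes without an OCR or below the filter, and the 6 smallest interaction p; the second OCR of a gene, the other X-linked members and the 9 members that rose in every alternative were chosen after their values were seen. The interaction result of 1 named member is not reported here. Percentages and counts carry counting error beside library spread.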

Additional observations from a re-analysis of the deposited data

Results flagged for a closer look

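The change on stimulation differed between genotypes at 13 RP promoter OCR by the interaction term of the edgeR fit (Ikzf1-cko minus WT, FDR below 0.05). In falling order of size, the log2 differences reported here were 0.61 at Rpl36a, 0.56 at Rpl39, 0.51 at Rpl15, 0.46 at Rps13, 0.44 at Rpl37, 0.42 at Rpl28, 0.41 at Rpl35, 0.39 at Rps14, 0.39 at the stronger OCR of Rpl24, and 0.38 each at Rpl30, Rps20 and Rpl34. All 13 were positive (14.9% of 87). At other start sites 9.15% were positive and 1.36% negative, and of all OCR 5.66% and 1.82%. The weaker OCR of Rpl24, which holds the start used for the sequence windows, did not pass (0.33, adjusted p = 0.15 by the same edgeR test). Rpl36a passed in 13 of 13 alternatives, Rpl15 in 12, Rpl37 and Rpl39 in 10, Rpl30 in 6, Rps13 and Rps14 in 5, Rpl34 and Rps20 in 4, Rpl28 and Rpl24 in 3, and Rpl35 in 2. With reads on other start sites as library size 3 members were positive and 1 negative, and with a loess fit against abundance 1 and 1. Over all OCR the counts were 1588 and 1529 with the former and 1462 and 1096 with the latter. Without 1 library at a time the number positive was 4 to 15, and Rpl36a stayed at 0.56 to 0.68.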

How the results depend on the processing

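Values are listed for the analyses that moved a count by over 1.5 times or a median by more than the spread between libraries (0.0608 on the log2 scale). Counts over all OCR moved too. Those higher ex vivo, for example, went from 6145 to 10064 with TMM and to 3269 with start-site reads. In stimulated cells they went from 14242 to 20664 with the GC fit and to 6191 with start-site reads. For Ikzf1-cko minus WT ex vivo, members higher at FDR below 0.05 numbered 34 with TMM scaling, 33 and 35 with a loess fit against GC content without and with the replicate block, 5 with reads on other start sites as library size, 3 with loess against abundance and 1 after quantile normalisation; members lower numbered 2 with start-site reads and 0 with TMM, DESeq2, thinning, limma on log2(FPKM + 0.1), log2(FPKM + 1) or quantile values, either GC fit, a filter on all 12 libraries or only the compared libraries, and 1 passed both thresholds with no filter. In stimulated cells higher members numbered 64 with either GC fit, 20 with start-site reads, 15 after quantile normalisation and 13 with loess, lower members 15 after quantile normalisation, 14 with loess, 12 with start-site reads, 2 with no filter and 0 with the 12-library filter, and members past both thresholds 2 with either GC fit and 1 with thinning, no filter or start-site reads. For stimulation in WT, 49 and 47 rose after quantile normalisation and loess, and 10 and 9 with the GC fits; 6, 3, 35 and 35 fell; past both thresholds were 5, 5, 1 and 1, 2 with start-site reads, and 1 with the 1000 bp window, log2(FPKM + 0.1), no filter or the replicate block. For stimulation in Ikzf1-cko, 19 rose with DESeq2, 20 with TMM, 21 and 22 with limma on log2(FPKM + 0.1) and log2(FPKM + 1), and 15 with either GC fit; 5 and 6 fell with the GC fits, 0 with limma on FPKM or quantile values, and 1 with 1 region per gene, the 100 bp window, the 12-library filter, DESeq2, thinning or no filter; past both thresholds were 2 with loess and 0 with 1 region per gene, the 100 bp window, the 12-library filter and the 3 limma fits. The interaction gave 6 positive members with thinning, 5 with DESeq2 or log2(FPKM + 1), 4 after quantile normalisation, 3 with TMM, log2(FPKM + 0.1) or start-site reads and 1 with loess, and 8 negative after quantile normalisation and 1 each with loess and start-site reads.

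Medians over members (ex vivo genotype, stimulated genotype) were 0.27 and 0.29 with TMM, 0.24 and 0.32 with DESeq2, 0.27 and 0.47 with the GC fit (0.28 and 0.47 with the block), 0.06 and -0.08 after quantile normalisation, 0.04 and -0.10 with loess and 0.03 and -0.04 with start-site reads. For stimulation in WT they were 0.29, 0.32, 0.21, -0.20 and -0.19 with quantile normalisation, loess, start-site reads, the GC fit and the GC fit with the block; in Ikzf1-cko 0.03 with either GC fit; for the interaction -0.10, -0.11, -0.03, 0.24 and 0.23. The median of all OCR moved to -0.37 with start-site reads in stimulated cells. The cause of these shifts was not tested.

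Some named members turned sign, with quantile normalisation, loess and start-site reads in that order. Ex vivo these were Rplp0 (-0.07, -0.07, -0.08), Rpl5 (-0.07, -0.07, -0.08) and Rpl11 (-0.04, -0.06, -0.11); in stimulated cells Rpsa (-0.09, -0.10, -0.01), Rplp0 (-0.13, -0.16, -0.08), Rpl11 (-0.24, -0.26, -0.24) and Rps19 (-0.19, -0.21, -0.09); on stimulation in WT Rpsa (0.14, 0.16, 0.04) and, for the first and second, Rplp0 (0.06, 0.09), Rps6 (0.08, 0.10) and Rpl5 (0.01, 0.03), and in Ikzf1-cko Rplp0 with loess (0.01). With DESeq2, TMM and the GC fits Rpl26 (0.01, 0.04, 0.01, 0.02) and Rpl23a (0.02, 0.04, 0.12, 0.13) turned positive ex vivo; with the GC fits Rpl19 was 0.03 in stimulated cells and Rps6 -0.03 on stimulation in Ikzf1-cko. Of the other values of named members, 573 kept direction and side of the threshold, 72 lost the call and 32 gained it.

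Leaving out 1 library at a time gave 6 to 20 higher and 0 to 1 lower ex vivo, 32 to 45 higher in stimulated cells with 0 to 1 past both thresholds, 18 to 30 that rose and 14 to 17 that fell in WT with 0 to 1 past both, 23 to 38 that rose and 1 to 1 that fell in Ikzf1-cko with 0 to 1 past both, and 4 to 15 positive and 0 to 1 negative interactions with medians of 0.04 to 0.15. Named values that crossed 0 ranged ex vivo from -0.01 to 0.11 (Rplp0), -0.02 to 0.12 (Rpl5), -0.08 to 0.08 (Rpl11) and -0.17 to 0.00 (Rpl26), in stimulated cells from -0.03 to 0.10 (Rpl11) and on stimulation in Ikzf1-cko from -0.06 to 0.03 (Rplp0). The ex vivo count was 6, 7 and 10 without WT replicate 1, WT replicate 2 and Ikzf1-cko replicate 2; the rise in Ikzf1-cko was 23 without its ex vivo replicate 1; and the interaction count was 7, 4, 4 and 6 without ex vivo Ikzf1-cko replicate 3, stimulated Ikzf1-cko replicate 3, ex vivo WT replicate 3 and stimulated WT replicate 1.

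With the replicate number as a block the members higher and lower were 19 and 1, 40 and 1, 28 and 16, and 34 and 2 in the 4 comparisons and 13 and 0 for the interaction. Same-numbered ex vivo and stimulated libraries correlated in their deviations by 0.21, 0.00 and -0.03 in WT and -0.34, 0.07 and -0.36 in Ikzf1-cko, so the numbers were not taken to pair libraries. Members with few reads, such as Rps4y2 (31 to 59 per library), are limited by counting.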
